A study of Mus musculus with 194 samples.

Results

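Metallothioneins are small cysteine-rich proteins that bind zinc and copper. In mice their genes lie side by side: Mt1 and Mt2 are expressed in most tissues and induced by metals and glucocorticoids, Mt3 is expressed mainly in the brain, and Mt4 is expressed in stratified epithelia such as skin. Induction by zinc runs through Mtf1, a zinc-sensing transcription factor that binds metal response elements in the Mt1 and Mt2 promoters. In the brain Mt1 and Mt2 are known as astrocyte genes, and Mt3 is found in astrocytes and in zinc-rich neurons.

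The 4 genes were taken with 30 kb on each side, from 94107204 to 94210327 on chromosome 8 of GRCm38 (103.124 kb), and transposon insertions in this span were counted. They are 4 of 21627 protein-coding genes of the chromosomes counted, and no other protein-coding gene lies in the span. The noncoding genes Gm39227 and Gm39228 do. In order along the plus strand, Mt4 lies at 94137204 to 94139031, Mt3 at 94152607 to 94154148, Mt2 at 94172618 to 94173567 and Mt1 at 94178883 to 94180327. Bbs2 ends 7.84 kb before the span and Nup93 starts 4.24 kb after it. The locus was selected on its measured level, the insertions per 1000000 insertions of each table (IPM), and on how that level differed between the groups. Those levels and their ratios are therefore described here and not tested.

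The assay was calling cards: a transposase in living cells places a reporter transposon into TTAA sequences. Mice received adeno-associated virus on postnatal day 0 to 1. The labels name the groups by Cre line and construct, do not give the strain of the Cre lines, and give an age only for the SP1 groups. Syn1Cre, a line that drives Cre in neurons, and its Cre-negative group Syn1CreNeg had 6 replicates each. GFAPCre, a line that drives Cre mainly in astrocytes, and GFAPCreNeg also had 6 each. C57bl6J mice, injected with viruses that need no Cre, had 2 replicates. Frontflip, a construct that the labels do not describe, was given to GFAPCre and to Cre-negative mice, with 3 replicates each. The Syn1Cre mice labelled SP1, the name of a GC-box binding transcription factor, had 3 replicates at P10 and 4 at P28, read as postnatal days. These groups were cortex, read from RNA transcribed off the inserted transposon (self-reporting transposon, SRT). BrokenHeart cortex had 3 replicates and was read from DNA, and Rbp4Cre_TRAP had 4, from whole forebrain. N2a, a mouse neuroblastoma cell line, is 1 table that combines 3 experiments. Each replicate is called an animal below, although the labels give only replicate numbers.

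The 47 tables held between 2341 insertions, in a Frontflip_GFAPCreNeg animal, and 2186743, in a C57bl6J animal, so 1 span insertion was worth between 0.457 and 427 IPM. The span held 6710 of 21931733 insertions. In bulk tissue, more insertions per cell and more cells of a type cannot be told apart.

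The sequences upstream of the genes were searched for cores of the metal response element and for TTAA, the target of the transposon. The 250 bases before each annotated start were read from RefSeq (GRCm38.p6, plus strand), 5′ to 3′, with cores of the metal response element in capitals (TGCACNC or TGCGCNC, on either strand, with no overlaps).
Mt4 (chr8:94136954-94137203): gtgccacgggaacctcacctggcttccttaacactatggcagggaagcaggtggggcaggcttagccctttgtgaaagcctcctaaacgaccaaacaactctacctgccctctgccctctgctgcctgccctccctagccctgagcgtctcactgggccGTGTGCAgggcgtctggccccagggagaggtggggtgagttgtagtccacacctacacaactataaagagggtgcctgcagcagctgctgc
Mt3 (chr8:94152357-94152606): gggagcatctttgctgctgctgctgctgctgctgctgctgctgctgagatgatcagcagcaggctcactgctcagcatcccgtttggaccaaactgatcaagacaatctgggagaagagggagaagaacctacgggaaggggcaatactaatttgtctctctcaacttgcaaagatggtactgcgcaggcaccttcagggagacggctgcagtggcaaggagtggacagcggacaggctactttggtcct
Mt2 (chr8:94172368-94172617): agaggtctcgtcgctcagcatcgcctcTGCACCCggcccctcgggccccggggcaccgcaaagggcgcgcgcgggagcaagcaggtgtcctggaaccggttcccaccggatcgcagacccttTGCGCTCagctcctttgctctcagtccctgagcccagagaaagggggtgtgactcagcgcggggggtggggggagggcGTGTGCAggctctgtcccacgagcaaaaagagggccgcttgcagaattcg
For Mt1 the RefSeq table places the start within the annotated gene, with 206 of the 250 bases inside it, so only the 30 bases around its core are shown.
Mt1 core (chr8:94179055-94179084): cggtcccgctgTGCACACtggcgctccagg

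The Mt2 stretch held 3 cores, Mt4 held 1 and Mt3 held none. The Mt1 stretch held 1, but it lies mostly inside the annotated gene, so its count cannot be ranked with the others. Among 27025 promoters of the same length, 21.3% held at least 1 core of either form and 1.28% held at least 3. The GC box GGGCGG, searched on both strands, was found 2 times in the Mt1 stretch, 1 of them inside the annotated gene, and not in the other 3, against 32.9% of promoters with at least 1. TTAA occurred 1 time before Mt4 and not in the stretches of Mt3, Mt2 and Mt1, whereas 49.4% of promoters held it. No table had an insertion in any of the 4 stretches. For Mt3, Mt2 and Mt1 no target was there to be hit, so these counts of 0 say nothing about the promoters themselves.

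The level of the span differed about 2-fold between neuron-directed and Cre-negative cortex. In Syn1Cre the lowest animal had 209 IPM, the median was 227 and the highest 381. In Syn1CreNeg the lowest had 420.0, the median was 473 and the highest 506. The groups did not overlap. GFAPCre lay between them, from 268 to 411 with a median of 343, and GFAPCreNeg ran from 345 to 663 with a median of 428. The 2 C57bl6J animals had 182 and 168 IPM.

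The remaining groups had fewer animals or shallower tables. With SP1 the 3 animals at P10 had 230.3, 256 and 231 IPM, and the 4 animals at P28 had 457, 615, 577 and 338. The P28 values lay higher, and this difference was part of what chose the locus and has no test. The P10 tables held only 20 to 23 span insertions each. The Frontflip_GFAPCre animals had 501, 641 and 704 IPM. Their Cre-negative controls had 833, 1709 and 1236, from 8, 4 and 7 insertions. For the control with 4 insertions the exact Poisson 95% interval runs from 465.6 to 4375, which takes in all 3 Frontflip_GFAPCre animals. BrokenHeart animals had 275, 173 and 329 IPM, and Rbp4Cre_TRAP animals 281, 278, 199.7 and 246. N2a had 152 IPM (exact Poisson 95% interval 127 to 182), from 123 insertions. Intervals here and below cover counting error only.

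**Figure D1:**
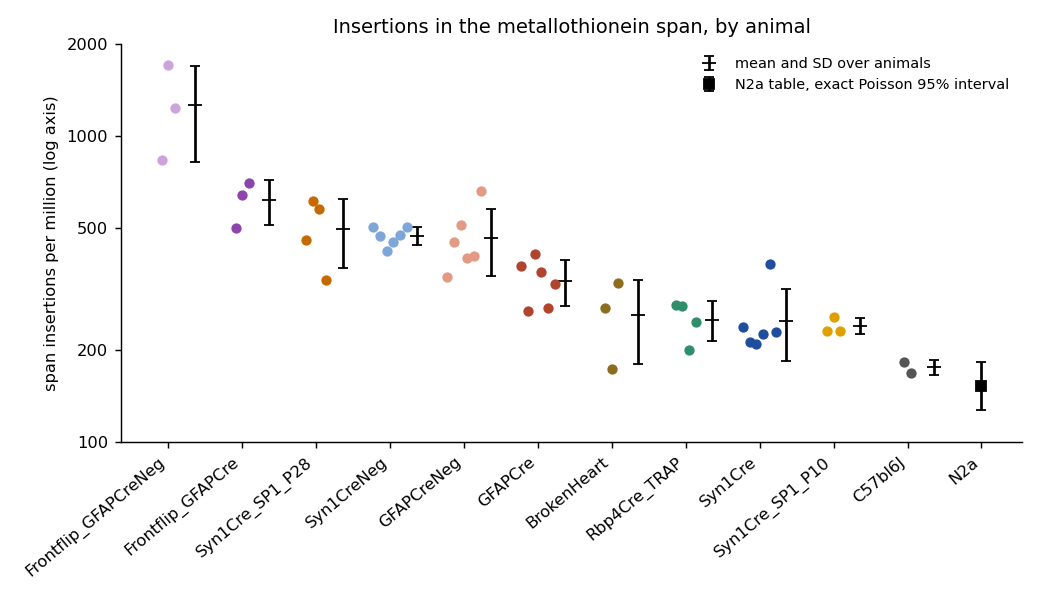
IPM in the metallothionein span (log axis), 1 point per animal, with the mean and SD of each group and, for the single N2a table, its exact Poisson 95% interval. The Syn1CreNeg animals (420.0 to 506) lie above every Syn1Cre animal (209 to 381), and the Frontflip_GFAPCreNeg animals lie highest on 4 to 8 insertions each.

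In order of their means, the groups ran from Frontflip_GFAPCreNeg (1259 ± 438, SD, n = 3), Frontflip_GFAPCre (615 ± 104, n = 3), SP1 at P28 (497 ± 126, n = 4), Syn1CreNeg (471 ± 32.2, n = 6), GFAPCreNeg (462 ± 113, n = 6) and GFAPCre (336 ± 56.9, n = 6) down to BrokenHeart (259 ± 79.3, n = 3), Rbp4Cre_TRAP (251 ± 37.7, n = 4), Syn1Cre (249 ± 65.6, n = 6), SP1 at P10 (239 ± 14.8, n = 3) and C57bl6J (175 ± 10.3, n = 2). Neighbours in this order lay within the larger of their SDs except at 3 steps: below Frontflip_GFAPCreNeg, below GFAPCreNeg and above C57bl6J. The ranges of GFAPCreNeg and GFAPCre still overlapped. The span was a rich region everywhere. Its level was above that of 98.9% of 25517 windows of the same length in Syn1Cre, 99.5% in Syn1CreNeg, 97.9% in C57bl6J and 94.3% in N2a.

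In some groups an extreme level came from the smallest or the largest table. Among the 6 Syn1Cre animals the highest level (381) came from the smallest table (443158 insertions), and among GFAPCreNeg the highest (663) also came from the smallest (208057). Among SP1 animals at P28 the lowest level (338) came from the largest table (577609). In Syn1CreNeg no pooled library held animals 1 to 3 together with animals 4 to 6, so table size and library set cannot be told apart there. Animals 1 to 3 had the small tables (97519 to 119059 insertions) and ran from 420.0 to 502 IPM. Animals 4 to 6 had the larger ones (417832 to 556145) and ran from 451 to 506, so these did not separate by size. The BrokenHeart tables were smaller still or as small (42511 to 98197 insertions) and had 173 to 329 IPM. The part of table size in the differences was not tested.

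**Figure D2:**
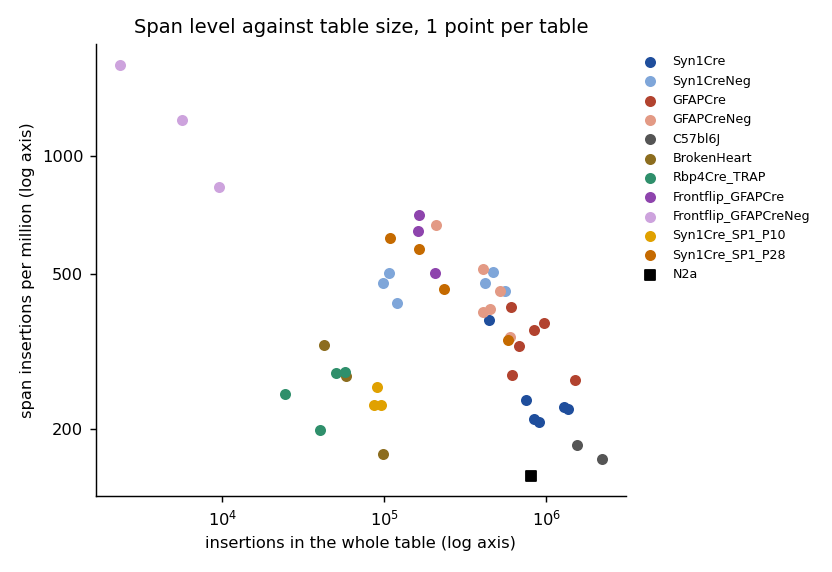
Span IPM against the number of insertions in the whole table, both on log axes, with 1 point per table coloured by group. In Syn1Cre and GFAPCreNeg the smallest table lies highest (381 and 663), with SP1 at P28 the largest lies lowest (338), and the Syn1CreNeg tables of 97519 to 556145 insertions stay between 420.0 and 506.

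The summed level at astrocyte marker loci (Slc1a2, Slc1a3, Aqp4, Gja1, Gfap, Aldh1l1 and Sox9, all 7 above 0 in every animal group) ran from 563 to 1859 IPM in Syn1Cre, 1962 to 2652 in Syn1CreNeg, 757 to 1554 in GFAPCre, 1376 to 2802 in GFAPCreNeg and 926 to 2059 with SP1 at P28. The summed level at 6 neuron loci (Gad1, Gad2, Dlx1, Slc17a7, Rbfox3 and Neurod6) was higher in Syn1Cre, from 999 to 1266 IPM, than in Syn1CreNeg, from 491 to 697. It ran from 616 to 809 in GFAPCre and from 452 to 707 in GFAPCreNeg, which overlap, and from 1205 to 1322 with SP1 at P28. The 6 neuron loci were chosen after seeing the data, and the order of SP1 at P28 and Syn1Cre depends on that choice. The part of either list in the span's levels was not tested.

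The 4 comparisons below are log2 ratios, each the difference of group means of log2 IPM. Syn1Cre against GFAPCre asks where neuron-directed and astrocyte-directed recording differ. The span's log2 ratio was -0.45 (SD between animals 0.32 and 0.25), 1.36-fold lower in Syn1Cre. Of the 6 Syn1Cre animals, 5 lay below every GFAPCre animal and the other, animal 5, lay among them. Complete separation, which the span did not reach, was seen at 0.957% of 13277 windows of the same length in that direction and at 1.57% in the other. Taken as the ratio of group means, with 1 added before log2, the span had -0.43. Of the windows, 5.87% had a lower ratio. Without Syn1Cre animal 5 the span's log2 ratio was -0.58. No pooled library held both lines, so sequencing pool and Cre line cannot be told apart.

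Against its own Cre-negative group, Syn1Cre had a log2 ratio of -0.95 (SD 0.32 and 0.10), 1.93-fold lower. All 6 Syn1Cre animals lay below all 6 Syn1CreNeg animals. Of 12696 windows of the same length with a mean of at least 20 IPM, 2.71% showed such a separation in that direction and 5.44% in the other. GFAPCre against GFAPCreNeg gave a log2 ratio of -0.45 (SD 0.25 and 0.33), and 3 of 6 GFAPCre animals lay below every GFAPCreNeg animal. Complete separation, which the span did not reach in this comparison, was seen at 1.83% of 12535 windows downwards and 1.32% upwards. As a ratio of group means the span had -0.46, and 6.45% of windows had a lower ratio. No pooled library held Syn1Cre with Syn1CreNeg. For the GFAP line 3 GFAPCre and 4 GFAPCreNeg animals shared pooled libraries, and among them the log2 ratio was -0.55.

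SP1 at P28 against Syn1Cre sets animals with the SP1 label beside the same Cre line without it. The log2 ratio was 0.99 (SD 0.39 and 0.32), 1.99-fold higher with SP1, and 3 of 4 SP1 animals lay above every Syn1Cre animal. The SP1 animal with 338 IPM did not. This value depends on the scaling: with totals taken over gene loci and TMM scaling the log2 ratio was 0.51. With scaling by all insertions the median of all gene loci was itself at 0.42, and 80.4% of changed loci were higher with SP1, against 50.8% with TMM. Complete separation, which the span did not reach, was seen at 15.1% of 12761 windows upwards and 20.1% downwards. As a ratio of group means, scaled by all insertions, the span had 0.99, and 11.1% of windows had a higher ratio. The labels give no age for Syn1Cre and no pooled library held both groups, so SP1, age and pool cannot be told apart. The Syn1Cre animals serve in 3 of the 4 comparisons and the GFAPCre animals in 2, so these are not independent.

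Within the span, most insertions assigned to a gene fell to Mt3 and few to Mt4. Each insertion within 5 kb of a gene was assigned to the nearest of the 4. Over all animals 34.1% of 6587 span insertions fell to Mt3, 8.40% to Mt1, 6.79% to Mt2 and 0.622% to Mt4. A further 21.3% lay before the 5 kb margin of Mt4 and 25.0% after that of Mt1.

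Mt3, the brain metallothionein, had the most insertions of the 4 in every animal group. Its level was 82.1 IPM ± 30.9 (SD, n = 6) in Syn1Cre, from 53.8 to 142 with a median of 72.8. In Syn1CreNeg it was 163 ± 25.4 (n = 6), from 126 to 199 with a median of 166. GFAPCre had 115 ± 23.3 (n = 6) and GFAPCreNeg 186 ± 45.5 (n = 6). The ranges of each Cre group and its negative group overlapped: 5 of 6 Syn1Cre animals and 4 of 6 GFAPCre animals lay below every animal of the Cre-negative group. As a share of the span's insertions Mt3 took 32.4% ± 4.37 in Syn1Cre, 34.5% ± 4.41 in Syn1CreNeg, 34.3% ± 4.04 in GFAPCre, 40.5% ± 5.16 in GFAPCreNeg and 27.7% ± 0.094 in C57bl6J. In N2a it took 12.2% (15 of 123 insertions, Wilson 95% interval 7.53 to 19.1).

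Mt2 and Mt1, the metal-induced pair, had lower mean levels in C57bl6J (12.3 and 10.1 IPM) and N2a (4.96 and 1.24) than in Syn1Cre, Syn1CreNeg, GFAPCre and GFAPCreNeg. Mt3 (48.5 and 18.6) and the whole span (175 and 152) were lower there too. As a share of the span Mt2 took 7.05% in C57bl6J and 6.87% in Syn1Cre, and Mt1 took 5.74% and 8.63%. At Mt2 single animals overlapped with C57bl6J: Syn1Cre animal 3 had 11.2 IPM and GFAPCre animal 4 had 10.8. Rbp4Cre_TRAP had a mean of 6.24 at Mt2, from 1 insertion. Mt2 had 16.8 IPM ± 5.07 in Syn1Cre, 37.9 ± 15.2 in Syn1CreNeg, 22.4 ± 6.78 in GFAPCre and 30.2 ± 14.1 in GFAPCreNeg, with SDs over 6 animals. Mt1 had 21.8 ± 9.47, 49.2 ± 18.2, 24.5 ± 6.86 and 41.3 ± 18.7 IPM in the same groups. In the small tables of Syn1CreNeg animals 1 to 3 the Mt2 levels came from only 3, 4 and 8 insertions. The gap at Mt2 was narrow: the highest Syn1Cre animal had 25.2 IPM and the lowest Syn1CreNeg animal 27.9, from 3 insertions. All 6 Syn1Cre animals lay below all 6 Syn1CreNeg animals at Mt2, and 5 of 6 at Mt1. In this comparison 2.71% of windows of the span's length separated in that direction and 17.3% of gene loci were called lower, and no share was computed for stretches as short as these. Against GFAPCreNeg the GFAPCre animals overlapped at both genes.

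With SP1 at P28 the ratio to Syn1Cre was larger at Mt2 and Mt1 than at Mt3, although Mt3 had the higher level. The 4 animals had 34.5, 82.6, 54.7 and 31.2 IPM at Mt2 and 56.1, 82.6, 66.8 and 53.7 at Mt1. Every one of them lay above the highest Syn1Cre animal, which had 25.2 at Mt2 and 38.4 at Mt1. Such separation was common in this comparison: 15.1% of windows of the span's length separated upwards. Of gene loci 25.8% were called higher with TMM scaling, and 5022 of 12050 with scaling by all insertions. The means were 3.01 times those of Syn1Cre at Mt2 and 2.97 times at Mt1, against 1.77 times at Mt3, 2.04 times before the margin of Mt4 and 1.83 times after that of Mt1. Mt1 and Mt2 took 13.3% and 9.92% of the span's insertions there, against 8.63% and 6.87% in Syn1Cre. At P10 the 3 SP1 animals had 23.0, 22.3 and 10.5 IPM at Mt2 and 0, 33.4 and 21.0 at Mt1, from 5 insertions at each gene. The ratios to Syn1Cre are scaled by all insertions, come from the contrast that chose the locus and have no test. With TMM scaling, gene bodies with 10 kb on each side had log2 fold changes of 0.94 at Mt2, 0.95 at Mt1 and 0.24 at Mt3. Mt2 ends 5.32 kb before Mt1 starts, so these 2 loci overlap. They share insertions and are not 2 separate results.

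Mt4, the epithelial member, was nearly empty. It had 41 insertions in all 46 animals, and its mean was 0.734 IPM in Syn1Cre, 0.953 in Syn1CreNeg, 2.39 in GFAPCre and 4.52 in GFAPCreNeg. Its body was hit 2 times, at 1 position in 2 animals. BrokenHeart, Rbp4Cre_TRAP and SP1 at P10 had no insertion near Mt4, which with 47, 44 and 65 span insertions allows shares of up to 6.38%, 6.82% and 4.62%. The number of TTAA sequences near each gene was not counted here, so a low count and a lack of targets cannot be told apart.

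**Figure D3:**
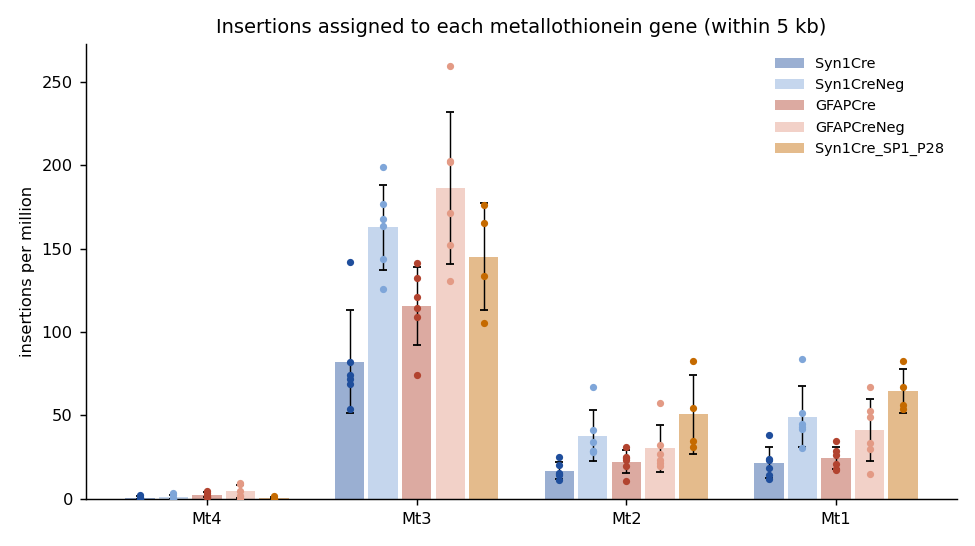
IPM assigned to each metallothionein gene within 5 kb, in genomic order, with bars for the mean, error bars for the SD and points for animals. Mt3 is highest in all 5 groups, Mt4 is close to 0, and SP1 at P28 is highest of the 5 at Mt2 (50.7 ± 23.6, n = 4) and Mt1 (64.8 ± 13.2, n = 4).

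Most insertions at Mt3 lay in its body or in a second group about 4 kb before its start. Of the 1314 span insertions in Syn1Cre, 15.1% (Wilson 95% interval 13.3 to 17.2) fell in the 5 kb before Mt3, 13.2% (11.4 to 15.1) in its body and 4.11% (3.16 to 5.32) in the 5 kb after it. GFAPCreNeg had 22.6% (20.2 to 25.1) before Mt3 and 12.7% in it. These intervals pool the animals of a group. By animal the share before Mt3 ran from 8.02% to 20.1% in Syn1Cre and from 19.9% to 27.3% in GFAPCreNeg, which overlap. BrokenHeart and Rbp4Cre_TRAP had none before Mt3, 0 of 47 and 0 of 44 insertions, which allows up to 6.38% and 6.82%. Both had insertions in the Mt3 body, 6 and 9. This stretch was picked after its counts were seen. BrokenHeart was read from DNA, and Rbp4Cre_TRAP came from forebrain RNA. The part of the readout, of tissue and of depth in the missing group was not tested.

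**Figure D4:**
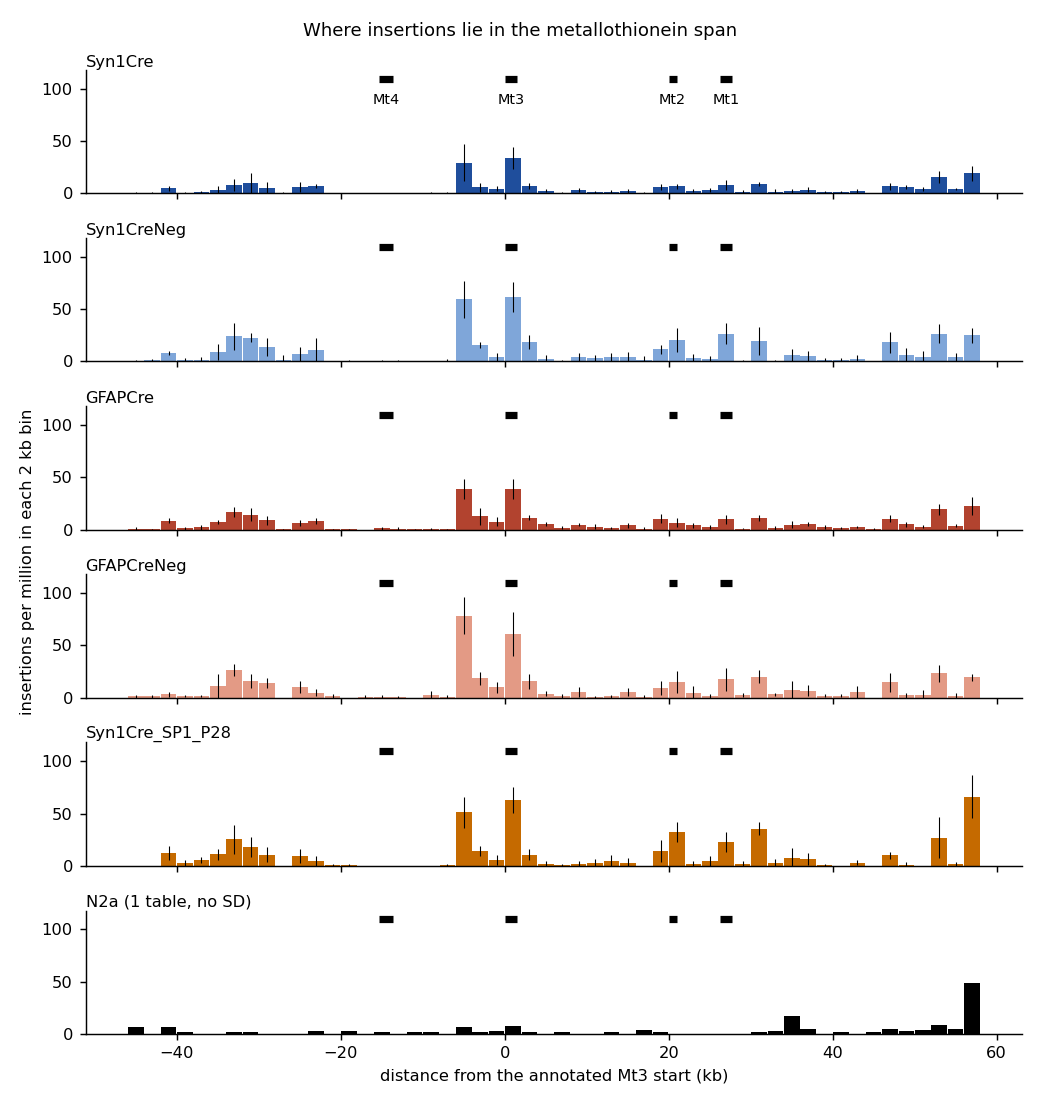
Mean IPM in 2 kb bins along the span against distance from the annotated Mt3 start, with SD bars over animals (N2a is 1 table) and black bars for the 4 genes. In the 5 mouse groups the tallest bins lie in the Mt3 body and 4 to 6 kb before it, joined by the last bin with SP1 at P28, while in N2a the last bin, towards Nup93, is tallest.

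In N2a the weight lay at the other end of the span: 65.9% of insertions (81 of 123, Wilson 95% interval 57.1 to 73.6) fell after the margin of Mt1, towards the start of the nuclear pore gene Nup93. The same stretch held 29.1% ± 8.33 in Syn1Cre, 31.6% ± 0.41 in C57bl6J and 50.4% ± 10.9 in Rbp4Cre_TRAP. In N2a 3 positions with 10 or more insertions held 31.7% of the span's lines. A share within the span does not show which stretch changed, and N2a had 18.6 IPM at Mt3 and 100.4 after Mt1, against 48.5 and 55.4 in C57bl6J.

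The density of insertions near the genes was compared with the rest of the span inside each animal, a measure the choice of the locus did not use. Within 5 kb of a gene the density exceeded that in the rest of the span by 0.49 ± 0.25 (log2, SD, n = 6) in Syn1Cre, 0.79 ± 0.23 in Syn1CreNeg, 0.54 ± 0.22 in GFAPCre and 0.97 ± 0.15 in GFAPCreNeg. It was higher in 6 of 6 animals of each group. The genes differed: Syn1Cre had 7.11 IPM per kb at Mt3, 2.39 at Mt1, 1.95 at Mt2 and 0.062 at Mt4. It had 1.95 before the margin of Mt4 and 2.74 after that of Mt1. In Syn1Cre and GFAPCre only Mt3 exceeded both of these outer stretches. Mt1 did so too in both Cre-negative groups, and Mt2 in Syn1CreNeg. For the 4 genes together, the exact two-sided sign-flip permutation test gave p = 0.03125 in each group, the smallest that 6 animals allow. It was the same after Benjamini-Hochberg adjustment over the 4 groups. The TTAA targets, which the animals share, were not counted. Uneven targets and a preference for the genes therefore cannot be told apart. The result rests on positions hit more than 1 time. When each position and strand was counted 1 time per animal, the differences were 0.022, 0.28, -0.051 and 0.39, with adjusted p from 0.125 to 0.75, and with 10 kb in place of 5 kb they were -0.037, 0.13, -0.026 and 0.37. In Rbp4Cre_TRAP the density near the genes was lower in 4 of 4 animals (-0.55 ± 0.32), from 6 to 16 insertions each.

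Repeated hits were concentrated at a few positions. The animals hit 350 positions in the span, of which 106 were hit in at least 10 animals and held 86.2% of the insertions. The 5 positions seen in most animals held 15.5%. The most frequent, at 94153268, lies 661 bases into Mt3 and was hit 235 times in 40 of 46 animals. The next, at 94153354 and 94153219, also lie in Mt3 and were hit 212 times in 38 animals and 173 times in 36. The other 2 lie near Nup93: 94209874 was hit 172 times in 36 animals and 94205866 was hit 226 times in 35. Among all positions of the genome in SRT animals, 94153268 ranked 1505 by number of insertions. SRT cortex tables list a position and strand at most 10 times, 1 for each piece of cortex, and in no cortex table did more than 2 positions of the span reach 10.

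Single positions were strongly skewed to 1 strand. At 94153268 all 235 insertions were on the plus strand (exact 95% interval 98.4 to 100%), at 94153219 all 173, and at 94153354 211 of 212. At 94209874 only 12 of 172 were on the plus strand, and at 94205866 35.4%. Over the Mt3 body 792 of 802 insertions were on the plus strand, the strand of the gene. In Mt1, also on that strand, 166 of 194 were, and in Mt2, likewise, 58 of 156. In the 5 kb before Mt3 the plus share was 25.6% in Syn1Cre and 24.4% in GFAPCreNeg. In the BrokenHeart animals, read from DNA, 4 of 6 insertions in the Mt3 body were on the plus strand, and at 94209874 4 of 8 were. Such skew is common: of 14494 positions elsewhere with at least 100 insertions in SRT animals, 20.2% had at least 95% on 1 strand, and 6 of 14 in the span did.

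Over the whole span the plus share lay nearer 50% than at these positions. It was 46.2% ± 2.34 (SD, n = 6) in Syn1Cre, 50.2% ± 2.38 in Syn1CreNeg, 48.6% ± 3.56 in GFAPCre and 48.2% ± 3.09 in GFAPCreNeg. It was below 50% in 6 of 6 Syn1Cre animals, with an exact two-sided sign-flip permutation p of 0.03125 that was 0.125 after adjustment over the 4 groups, the smallest that a single such group can reach. In the other 3 groups the adjusted exact p ran from 0.375 to 1.

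In the 4 groups with 6 animals, insertions in the span had more reads than those of the same table at large. The mean log2 read count per insertion was higher by 0.75 ± 0.10 (SD, n = 6) in Syn1Cre, 0.37 ± 0.21 in Syn1CreNeg, 0.50 ± 0.12 in GFAPCre and 0.53 ± 0.11 in GFAPCreNeg. All 24 animals showed this direction, and the adjusted exact sign-flip permutation p was 0.03125 in each group, the smallest possible. In SRT libraries the reads come from RNA, so this is a measure of recovered transcripts and not of insertions. BrokenHeart animals, read from DNA, had 0.11 ± 0.065 (n = 3), and Rbp4Cre_TRAP had 0.28 ± 0.66 (n = 4). With SP1 the difference was 0.16 ± 0.47 at P28 (n = 4) and -0.014 ± 0.55 at P10 (n = 3). It was -0.30 ± 0.59 in Frontflip_GFAPCreNeg (n = 3), 0.11 ± 0.060 in Frontflip_GFAPCre (n = 3), 0.46 ± 0.050 in C57bl6J (n = 2) and -0.29 in the N2a table.

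Beyond the members, 28 metal handling genes were examined as gene loci, each a gene body with 10 kb on each side. They comprise Mtf1, 8 members of the Slc30 family of zinc exporters, 12 of the Slc39 family of zinc importers and 7 copper genes. Exporter and importer below name the family and not the metal that each member moves. The test was the quasi-likelihood test of edgeR over all loci, with an adjusted p (Benjamini-Hochberg) under 0.05 as threshold. Levels at these loci are TMM-scaled IPM. Mtf1 itself passed in none of the 4 comparisons (adjusted p from 0.166 to 0.812).

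Between Syn1Cre and GFAPCre the list hardly differed: 1 of 23 tested loci passed, against 2.19% of all 11640 (1.25% higher in Syn1Cre and 0.936% lower). It was Slc30a3, which loads zinc into synaptic vesicles, at 29.9 ± 4.35 in the Syn1Cre and 15.7 ± 5.27 in the GFAPCre animals (6 each, log2 fold change 0.81, SE 0.21, edgeR adjusted p = 0.0374). The call was lost in 9 of 12 fits that left out 1 animal, with adjusted p up to 0.107. The median log2 fold change was -0.055 over the list and 0.0029 over all loci.

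Against Syn1CreNeg, 1 locus of 19 rose in Syn1Cre and 3 fell, against 30.7% of all 8728 loci called (13.4% higher and 17.3% lower). The zinc importer Slc39a12 fell the most, from 121 ± 24.3 in Syn1CreNeg to 39.2 ± 31.9 in Syn1Cre (log2 fold change -1.74, SE 0.28, adjusted p = 4.4e-05). The exporter Slc30a10 (log2 fold change -1.40) and the copper pump Atp7a (-1.24) also fell, and the importer Slc39a3 rose (0.68, SE 0.22, adjusted p = 0.0183). Without Syn1CreNeg animal 5 the adjusted p of Slc39a3 was 0.0926. The median over the list was -0.20, against 0.016 over all loci.

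In GFAPCre 5 of 19 loci fell against GFAPCreNeg and none rose, where 8.26% of 9240 loci were called (2.1% higher and 6.16% lower). Slc39a12 fell from 101 ± 44.2 to 43.3 ± 10.7 (log2 fold change -1.14, SE 0.20, adjusted p = 0.00071). The exporters Slc30a5 (-1.02) and Slc30a7 (-0.57), Atp7a (-0.64) and the importer Slc39a14 (-0.53) fell too. Slc39a14 kept its call in 4 of 12 fits without 1 animal. Without GFAPCre animal 2 the adjusted p of Slc30a7 was 0.0661, and over distinct positions it was 0.158. Atp7a had an adjusted p of 0.0517 without GFAPCre animal 1 and 0.0555 without GFAPCreNeg animal 4. The median over the list was -0.15, against 0.014 over all loci. Slc39a12 and Atp7a were thus lower in both Cre lines than in their Cre-negative groups, as the span was. Whether the 2 Cre lines differ in this was not tested. The summed astrocyte marker loci also differed between these groups, as given above, and their part was not tested.

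With SP1 at P28 against Syn1Cre 5 of 23 loci rose and 4 fell, where 50.8% of 12301 loci were called (25.8% higher and 25.0% lower). The copper chaperone Atox1 rose most, from 19.4 ± 3.11 (n = 6) to 60.4 ± 16.1 (n = 4) (log2 fold change 1.79, SE 0.24, edgeR adjusted p = 8.6e-07). The exporter Slc30a1, a target of Mtf1, rose from 17.1 ± 5.27 to 48.3 ± 15.1 (1.36, SE 0.30, edgeR adjusted p = 0.0005), a call lost over distinct positions (0.60, adjusted p = 0.195). The importers Slc39a8 (-1.33), Slc39a10 (-1.05), Slc39a9 (-1.03) and Slc39a11 (-1.03) fell. Slc39a9 lost its call in 6 of 10 fits without 1 animal. With scaling by all insertions 9 rose and 3 fell. The median over the list was 0.088, against -0.062 over all loci.

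**Figure D5:**
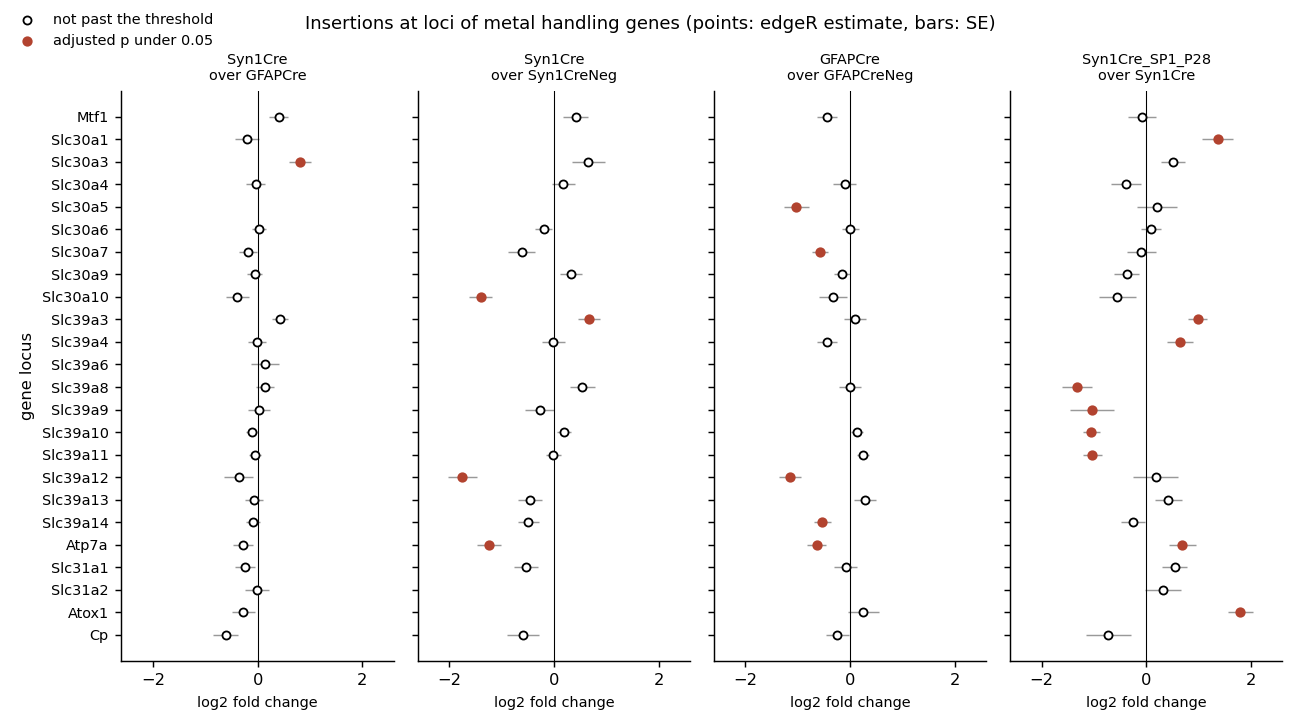
Log2 fold change of insertions at loci of metal handling genes in 4 comparisons, with the edgeR estimate as points and its SE as bars, filled where the adjusted p was under 0.05. Slc39a12 and Atp7a lie left of 0 in both comparisons of Cre with Cre-negative cortex, and Atox1 (1.79) lies farthest right with SP1.

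The loci whose levels most resembled the span over 10 animal groups were Gm34296 (Pearson r = 0.97 of log2 group means), Specc1 (0.96), Gtf2i (0.96), Ppp1r15b (0.96) and Pamr1 (0.95), chosen as the highest of 9413 loci on other chromosomes or more than 1 Mb away. Ppp1r15b, which encodes a subunit that directs a phosphatase to a translation initiation factor, had 44.2 IPM in Syn1Cre, 79.0 in Syn1CreNeg and 77.0 with SP1 at P28. Pamr1 had 350.2, 1042 and 831. The 10 groups share libraries, table sizes and cell makeup, so these values describe a pattern and carry no test.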

How the data were processed

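The 4 genes and all gene lists were chosen with earlier results of these data known. The 194 GEO samples are libraries, and the authors deposited 47 tables, 1 for each animal of 11 groups and 1 for N2a. Each line of a deposited table is 1 insertion with position, strand, barcode and a raw read count, as deposited by the authors. The tables have no header. Novoalign, Bowtie2 and mm10 (GRCm38) are named in the submitters' processing notes, and filters are not given in the sources used here. Starts, which lay 1 base further on in BrokenHeart, were turned to the first base of TTAA.

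Lines were counted per span and gene locus (RefSeq, GRCm38.p6) and divided by the lines of the table, times 1000000 (IPM). Groups came from the labels, and p-values measure the spread between replicates of a group. Loci were tested with edgeR 4.0.16 in R 4.3.3 (TMM, filterByExpr, group only), checked on simulated counts, with DESeq2 1.42.0 as an alternative. Within-animal tests used exact sign flips (Python 3.11.15). Windows of the span's length were kept from a mean of 20 IPM. The named metal loci were those past the threshold, at most 6 per comparison by size of fold change. The similar loci needed a mean of 20 IPM and groups of at least 100000 insertions, with 1 added before log2. The 5 named positions were those seen in most animals. Marker lists for oligodendrocytes, microglia and endothelial cells are given in the closing section. The list of 6 neuron loci was chosen after seeing the data, and 1 further neuron marker is not reported here.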

Additional observations from a re-analysis of the deposited data

Results flagged for a closer look

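Animal 5 of Syn1Cre stood apart from the other 5, with 381 span IPM against 209 to 238. It also stood apart in the level assigned to Mt3, 142 IPM against 53.8 to 82.0. In GFAPCre, animal 5 had 55.6% of its span insertions on the plus strand, where the others had 45.7% to 48.4%. At Mt2, animal 3 of Syn1CreNeg had 67.2 IPM against 27.9 to 41.0, and animal 6 of GFAPCreNeg had 57.7 against 19.8 to 32.0. Animal 3 of Rbp4Cre_TRAP had 25.0 IPM at Mt2 from a single insertion, and the other 3 animals had 0. These 6 values lay farther from their group than Dixon's test allows at 95%. They came from 42 groups of values, and chance flags about 1 in 20.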

How the results depend on the processing

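The span's log2 ratio kept its direction under every alternative run, and moved by less than the SD between animals in the 3 comparisons without SP1. For SP1 at P28 against Syn1Cre it was 0.51 with TMM-scaled totals and 0.49 with DESeq2 size factors, against 0.99. Leaving out 1 animal gave -0.58 to -0.38 for Syn1Cre against GFAPCre, -1.08 to -0.91 against Syn1CreNeg, -0.52 to -0.34 for GFAPCre against GFAPCreNeg and 0.88 to 1.16 with SP1. No pooled library held animals 1 to 3 of Syn1Cre or Syn1CreNeg with animals 4 to 6. Against GFAPCre, Syn1Cre had -0.60 with its animals 1 to 3 and -0.30 with animals 4 to 6. Against Syn1CreNeg it had -1.08 with animals 1 to 3 of both groups and -0.82 with animals 4 to 6.

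The density near the genes in Syn1Cre, Syn1CreNeg, GFAPCre and GFAPCreNeg was -0.037, 0.13, -0.026 and 0.37 with 10 kb around genes, and 0.022, 0.28, -0.051 and 0.39 over distinct positions (log2, adjusted exact sign-flip permutation p from 0.125 to 0.8125). The 2 kb margin and lines with at least 2 reads left it past the threshold in all 4 groups. The higher read counts passed in all 4 groups under the alternative run.

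For the metal list, Syn1Cre against GFAPCre had 0 loci past the threshold with DESeq2, over distinct positions, over gene bodies and with the replicate block, where edgeR called 1 and had 4 at an unadjusted p under 0.05. Leaving out 1 animal gave 0 to 1. Syn1Cre against Syn1CreNeg had 7 with no filter on low counts and 4 to 7 without 1 animal. GFAPCre against GFAPCreNeg had 3 with DESeq2, 2 over distinct positions, 3 over gene bodies and 3 to 5 without 1 animal. With SP1 leaving out 1 animal gave 6 to 9. The cause of these changes was not tested.

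The replicate numbers did not pair the animals: deviations of same-numbered animals correlated between -0.21 and 0.17. With the replicate number as a block 0, 4, 4 and 9 metal loci passed in the 4 comparisons, and 188, 2333, 655 and 5997 of all loci. Depth limits BrokenHeart, Rbp4Cre_TRAP, SP1 at P10 and Frontflip_GFAPCreNeg, where an animal had 4 to 23 span insertions.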

Other observations

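The summed level at 3 endothelial loci ran from 33.9 to 71.7 IPM in Syn1Cre and from 18.6 to 28.8 in Syn1CreNeg, which do not overlap. In this comparison 5.44% of windows of the span's length separated in that direction and 13.4% of gene loci were called higher. No share was computed for sums over loci. In Syn1CreNeg 1 of the 3 endothelial loci was at 0, and in its animals 1 to 3 each insertion was worth 8.40 to 10.3 IPM. The 4 microglia loci ran from 26.2 to 36.1 and from 16.8 to 71.8. The 6 oligodendrocyte loci ran from 200.6 to 262 in Syn1Cre and from 252 to 346 in Syn1CreNeg. The ranges of these last 2 lists overlap. These values were not tested.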
